A study of Mus musculus with 8 samples.

Results

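The 10 genes examined here act in co-stimulation and inhibition of T cells: CD28, ICOS, CTLA4, PDCD1, BTLA, LAG3, TIGIT, CD160, CD200 and HAVCR2. They were taken by name from the 46625 gene names of the count table, and all 10 members were found. The cells were 8F10 T cells, which carry a receptor for an insulin peptide, and were measured by RNA sequencing in 8 libraries. Stem cells from the bone marrow of 8F10 donors lacking their own T cell receptor alpha chain (CD45.2) had been cleared of T and B cells and given to hosts (CD45.1) irradiated at a sublethal dose. The T cells were sorted 6 weeks later from inguinal lymph nodes, which lie away from the pancreas. There were 4 libraries from NOD hosts, which make native insulin, and 4 from B16A hosts, NOD mice with insulin altered in its B chain. The labels give NOD/ShiLtJ as the strain throughout, and the hosts keep cells of their own because the irradiation was not lethal. The sources used here give neither age nor sex, nor how many animals went into a library. The libraries come as 4 batches, each with 1 library of either host, and the hosts were compared within batches.

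A T cell reads antigen through its receptor, and a second set of surface proteins raises or damps that signal. CD28 and ICOS are the activating members of the CD28 family, while CTLA4, PDCD1 (PD-1) and BTLA from the wider family restrain the cell. LAG3, TIGIT, CD160 and HAVCR2 (TIM-3) are further receptors known mainly for inhibition, and CD200 is a membrane protein that signals to CD200R1 on other cells. Resting T cells carry CD28 and BTLA, whereas ICOS, CTLA4, PDCD1, LAG3, TIGIT and HAVCR2 are known to rise with antigen stimulation or in regulatory and follicular helper T cells.

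Total counts ran from 4896593 to 6137666 in batches 1 to 3 and reached 28301805 (NOD host) and 28094237 (B16A host) in batch 4. The batch 4 libraries stood apart: they detected 19751 and 20723 genes, against 29729 to 33175 in the other 6, and 5097 genes counted in all 6 others had 0 counts in both. CD4 T cell transcripts were present in every library, with CD4 at 699 to 1204 CPM (counts scaled to the normalized library size). Of the markers of CD8 T cells, CD8A stood at 0 to 3.56 CPM and CD8B1 at 62.6 to 186 CPM. Summed markers of 7 B cell genes ran from 3.85 to 29.5 CPM in NOD and 2.18 to 15.0 CPM in B16A hosts, lowest in batch 4 in either host. FOXP3, the defining factor of regulatory T cells, ranged over 2.28 to 8.27 CPM outside batch 4, in which it had 0 counts in the NOD and 10 counts in the B16A library.

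BTLA was by far the most abundant of these transcripts and, with CD200, had the smallest p between hosts, but no receptor gene was called after adjustment over all genes. Of the 10 genes only BTLA, CD200, CD28 and CD160 had enough counts to be tested, and 0 of these 4 passed the threshold of 0.05 (edgeR quasi-likelihood test with batch as a term, Benjamini-Hochberg adjustment). The background was the same, with 0% of 14607 tested genes called higher and 0% called lower. At an unadjusted p under 0.05, 519 genes (3.55%) were higher and 338 (2.31%) lower in NOD hosts, among them BTLA and CD200 on the higher side. DESeq2 called 23 genes higher (0.157%) and 4 lower (0.0274%), and limma voom 8 (0.0548%) and 1 (0.00685%), and no member was called by either. Without a filter on low counts, where all 10 members could be tested, 11 genes were higher (0.0278%) and 3 lower (0.00758%), again with no member called. Leaving out the NOD library of batch 4 gave 42 genes higher (0.263%) and 13 lower (0.0815%), leaving out its B16A library 35 (0.22%) and 10 (0.0628%), and leaving out both 25 (0.159%) and 7 (0.0445%), with 0 members among them. With batch as a term, these leave-out fits all rest on the pairs of batches 1 to 3. All 10 members had overlapping host ranges, and 0.205% of tested genes lay wholly higher and 0.39% wholly lower in NOD hosts. The other 6 members were too low to test. A gene had to reach 1.64 CPM of the total count in at least 4 libraries, and ICOS, CTLA4 and LAG3 did so in 2 libraries, PDCD1, TIGIT and HAVCR2 in 3. In sorted cells measured in bulk, fewer cells with a transcript and less transcript per cell cannot be told apart.

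**Figure D1:**
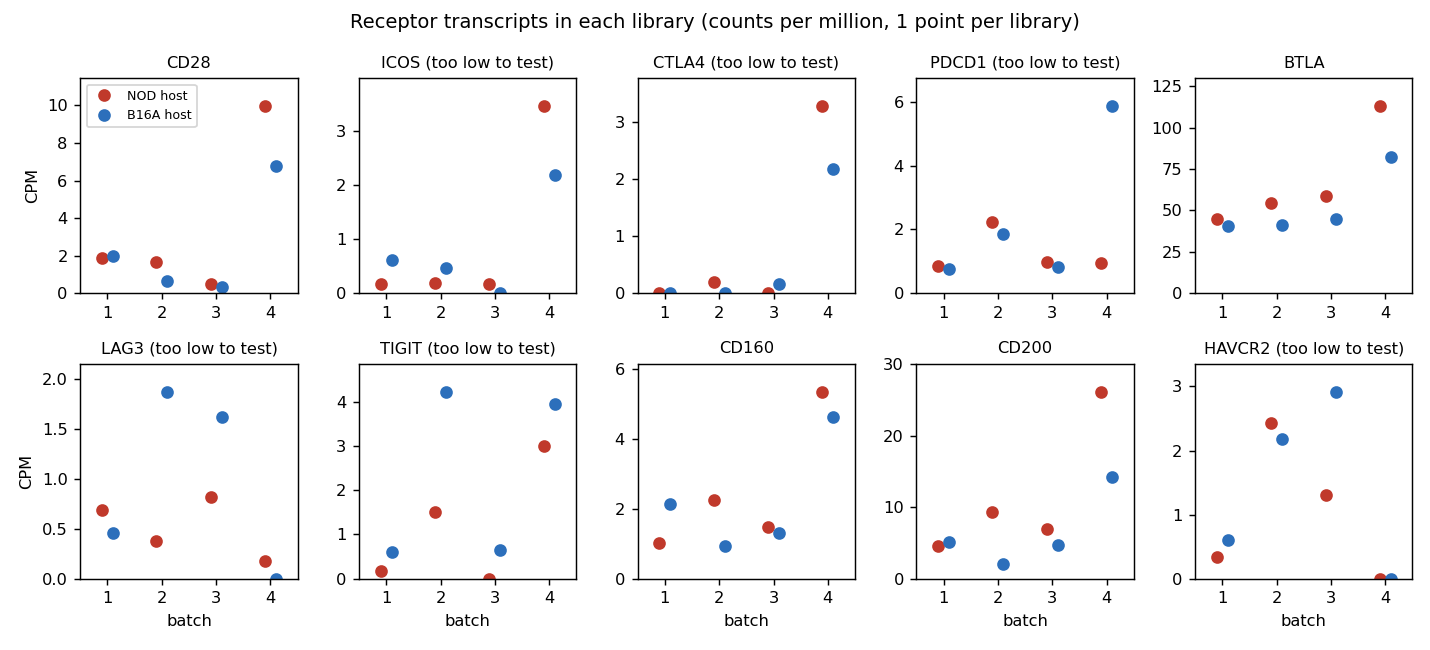
CPM of each receptor gene (vertical axes, each from 0 and with its own range) by batch (horizontal axes), 1 point per library, red NOD host and blue B16A host, with no error bars as each point is 1 library. BTLA runs from 40.5 to 113 CPM and is higher in the NOD library of every batch, while HAVCR2 has 0 counts in both batch 4 libraries.

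BTLA, an inhibitory receptor whose ligand is TNFRSF14 (HVEM), was the most abundant of the 10 transcripts and was higher in the NOD library of each batch. It stood at 44.6, 54.4, 58.5 and 113 CPM in the NOD libraries of batches 1 to 4 and at 40.5, 41.2, 44.7 and 82.5 CPM in the B16A libraries. The ranges of the hosts overlap, also without batch 4, but within every batch the NOD library was the higher one. The within-batch log2 ratios were 0.14, 0.40, 0.39 and 0.45 in batches 1 to 4. Of all tested genes 7.43% were higher in the NOD library in all 4 batches, so this run alone does not set BTLA apart. The fitted log2 fold change was 0.35 ± 0.15 (SE), with an unadjusted 95% interval of 0.02 to 0.67 (edgeR, unadjusted p = 0.0382, adjusted p = 0.844). In batches 1 to 3 alone it was 0.31 ± 0.17 (SE; edgeR, unadjusted p = 0.0747, adjusted p = 0.677).

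CD200, the membrane ligand of CD200R1, had the larger fitted difference of the pair and the less even one. It stood at 4.65, 9.35, 7.03 and 26.1 CPM in NOD and at 5.18, 2.03, 4.69 and 14.2 CPM in B16A hosts. The NOD library was higher in batches 2, 3 and 4 and slightly lower in batch 1, with within-batch log2 ratios of -0.15, 2.10, 0.56 and 0.87. The fitted log2 fold change was 0.85 ± 0.37 (SE), with an unadjusted 95% interval of 0.05 to 1.64 (edgeR, unadjusted p = 0.0385, adjusted p = 0.844). Batch 2 carried much of it: without both batch 2 libraries the value was 0.49 (edgeR, adjusted p = 0.967). In that batch the summed B cell markers were also higher in the NOD library, at 29.5 against 15.0 CPM, and so were 7 myeloid markers, at 55.9 against 31.8 CPM. Their part in the result was not tested. In batch 4, where CD200 was higher in the NOD library too, those sums were 3.85 and 2.18 CPM for B cells and 2.38 and 3.35 CPM for myeloid cells.

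BTLA and CD200 lie close together on mouse chromosome 16, in mm10 (GRCm38) coordinates from the GENCODE vM21 annotation. BTLA spans 45224315 to 45257670 on the plus strand and CD200 spans 45382135 to 45409053 on the minus strand, with start sites 185 kb apart. TIGIT is on the same chromosome (43648867 to 43664146, minus strand), 1560 kb from BTLA. The 250 bases before the RefSeq start (GRCm38.p6, reference strain) are shown for these 3 genes because BTLA and CD200 had the smallest p of the tested members and TIGIT was the member lower in the NOD library of every batch. Capitals mark matches, on either strand, to the NFAT core GGAAA, the AP-1 motif TGANTCA, a forkhead motif GTAAACA, the ETS core AGGAAG and the GC box GGGCGG. The windows are chr16:45224087-45224336 (plus strand) for BTLA, chr16:45409054-45409303 (minus strand) for CD200 and chr16:43664185-43664434 (minus strand) for TIGIT.
BTLA: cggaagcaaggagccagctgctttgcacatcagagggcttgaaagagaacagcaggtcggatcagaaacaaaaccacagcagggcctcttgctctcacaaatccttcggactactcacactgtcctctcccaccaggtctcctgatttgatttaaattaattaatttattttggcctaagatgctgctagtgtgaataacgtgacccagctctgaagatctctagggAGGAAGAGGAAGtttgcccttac
CD200: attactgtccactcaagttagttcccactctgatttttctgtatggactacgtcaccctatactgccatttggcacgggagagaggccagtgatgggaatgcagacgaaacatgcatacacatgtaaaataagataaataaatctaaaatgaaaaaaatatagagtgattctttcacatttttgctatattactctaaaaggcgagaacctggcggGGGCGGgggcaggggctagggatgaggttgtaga
TIGIT: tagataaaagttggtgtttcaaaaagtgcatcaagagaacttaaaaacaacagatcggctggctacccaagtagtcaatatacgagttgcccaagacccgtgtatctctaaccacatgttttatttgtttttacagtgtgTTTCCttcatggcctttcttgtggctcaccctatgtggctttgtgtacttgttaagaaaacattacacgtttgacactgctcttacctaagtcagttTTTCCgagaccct
BTLA held 2 ETS cores, CD200 held 1 GC box and TIGIT held 2 NFAT cores. The BTLA window ends at 45224336, past the GENCODE start of 45224315, and its ETS cores lie at or just after that start. Of 32851 promoter windows of this length 29.5% held the ETS core, 32.7% the GC box and 55.6% the NFAT core, so each of these matches is common. The AP-1 motif (6.75% of windows) and the forkhead motif (3.17%) had no match in these 3. Of the 10 members 7 had a window in the table, and CD28, ICOS and LAG3 did not.

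Other genes around BTLA did not share its direction as a block. Within 500 kb of the BTLA start site 10 genes were tested, BTLA and CD200 among them, and of the other 8 genes 4 had a positive and 4 a negative log2 fold change. CD200R1, the receptor for CD200, lies in that window (44765736 to 44794978) with a log2 fold change of -0.25 and a standard error of 0.30 (edgeR, adjusted p = 0.963). ATG3, an autophagy enzyme upstream of BTLA, stood at -0.10 ± 0.17 (SE; edgeR, adjusted p = 0.979).

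CD28, the main co-stimulatory receptor of naive T cells, was low in batches 1 to 3 and higher in batch 4. It had 11, 9, 3 and 222 counts in the NOD libraries of batches 1 to 4, or 1.89, 1.68, 0.49 and 9.95 CPM. The B16A libraries had 13, 4, 2 and 162 counts, or 1.98, 0.62, 0.32 and 6.79 CPM. The NOD library was higher in 3 of 4 batches, by log2 ratios of -0.06, 1.20, 0.40 and 0.54, and the hosts overlapped. The fitted log2 fold change of 0.57 had a standard error of 0.57 and an unadjusted 95% interval of -0.65 to 1.79 (edgeR, adjusted p = 0.961). CD28 has the longest exons of the set, 6122 bases in all, and even so gave at most 13 counts in any library of batches 1 to 3.

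ICOS and CTLA4, which sit beside CD28 in 1 cluster on chromosome 1, were close to or at 0 outside batch 4. CD28 spans 60716800 to 60773359, CTLA4 spans 60887000 to 60915832 and ICOS spans 60977927 to 61000320, all on the plus strand. ICOS, an inducible co-stimulator prominent on follicular helper cells, had 1, 1, 1 and 77 counts in NOD and 4, 3, 0 and 52 counts in B16A hosts. CTLA4, the inhibitory counterpart of CD28 for the same ligands, had 0, 1, 0 and 73 counts in NOD and 0, 0, 1 and 52 counts in B16A hosts. The 2 counts of CTLA4 in the 6 libraries of batches 1 to 3 leave no comparison there. By a limit of 3 counts, a count of 0 allows up to 0.516 CPM in the NOD library of batch 1. The 95% exact Poisson interval there reaches 0.635 CPM. In batch 4 CTLA4 reached 3.27 CPM (NOD) and 2.18 CPM (B16A), and ICOS at 3.45 and 2.18 CPM, so both were higher in the NOD library of that batch. The counting intervals overlap for CTLA4, 2.56 to 4.11 and 1.63 to 2.86 CPM (95% exact Poisson, counting error only), which is not a test of their difference. In the NOD library of batch 4 the regulatory T cell markers summed to 113 CPM, the highest of the 8 libraries, with TNFRSF18 at 82.8 CPM and FOXP3 at 0 counts. Their part in the CTLA4 counts was not tested.

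PDCD1, which codes for PD-1 on chromosome 1 (94038305 to 94052553, minus strand), was even between hosts in batches 1 to 3 and far apart in batch 4. It had 5, 12, 6 and 21 counts in the NOD and 5, 12, 5 and 140 counts in the B16A libraries. In CPM these are 0.86, 2.24, 0.98 and 0.94 in NOD and 0.76, 1.87, 0.81 and 5.87 in B16A hosts. The within-batch log2 ratios were 0.14, 0.24, 0.23 and -2.42. The batch 4 libraries differed beyond counting error, with intervals of 0.583 to 1.44 and 4.93 to 6.92 CPM (95% exact Poisson), which compares 2 libraries and not the hosts. In batch 4 TIGIT too was lower in the NOD library, at 3.00 against 3.94 CPM. PDCD1 thus went opposite to CD28, ICOS, CTLA4, BTLA, CD200, CD160 and LAG3 in that batch, each of which was higher in the NOD library. Without a filter on low counts its log2 fold change was -0.61 ± 0.77 (SE; edgeR, adjusted p = 0.999), and without the NOD library of batch 4 it was 0.24 ± 0.69 (SE; edgeR, adjusted p = 0.977).

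TIGIT, an inhibitory receptor for PVR (CD155), was the member with the opposite run to BTLA, lower in the NOD library of each batch. It had 1, 8, 0 and 67 counts in NOD and 4, 27, 4 and 94 counts in B16A hosts, or 0.17, 1.50, 0 and 3.00 CPM against 0.61, 4.21, 0.65 and 3.94 CPM. The within-batch log2 ratios were -1.13, -1.38, -2.12 and -0.37. The counting intervals of the NOD and the B16A library overlap in every batch, which is not a test of their difference. In batch 2 they were 0.646 to 2.95 and 2.78 to 6.13 CPM (95% exact Poisson). Most counts of batches 1 to 3 came from batch 2, and the ranges of the hosts overlap. Of all tested genes 6.85% were lower in the NOD library in all 4 batches. TIGIT did not pass the filter and is not among the tested genes. Without the filter its log2 fold change was -1.42 ± 0.79 (SE; edgeR, unadjusted p = 0.0746, adjusted p = 0.999). The summed regulatory T cell markers (8 genes) went the other way in every batch. They stood at 92.1, 101, 87.8 and 113 CPM in NOD and at 76.0, 71.0, 73.0 and 107 CPM in B16A hosts. TNFRSF18 weighs most in that sum, with a mean of 44.4 CPM over the 8 libraries. Of the 7 tested markers 4 had a positive log2 fold change, while FOXP3 (-0.64), IKZF4 (-0.47) and NRP1 (-0.11) had a negative one. FOXP3 stood at 4.30 CPM in the NOD and 8.27 CPM in the B16A library of batch 2. The part of regulatory T cells in the TIGIT counts was not tested.

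**Figure D2:**
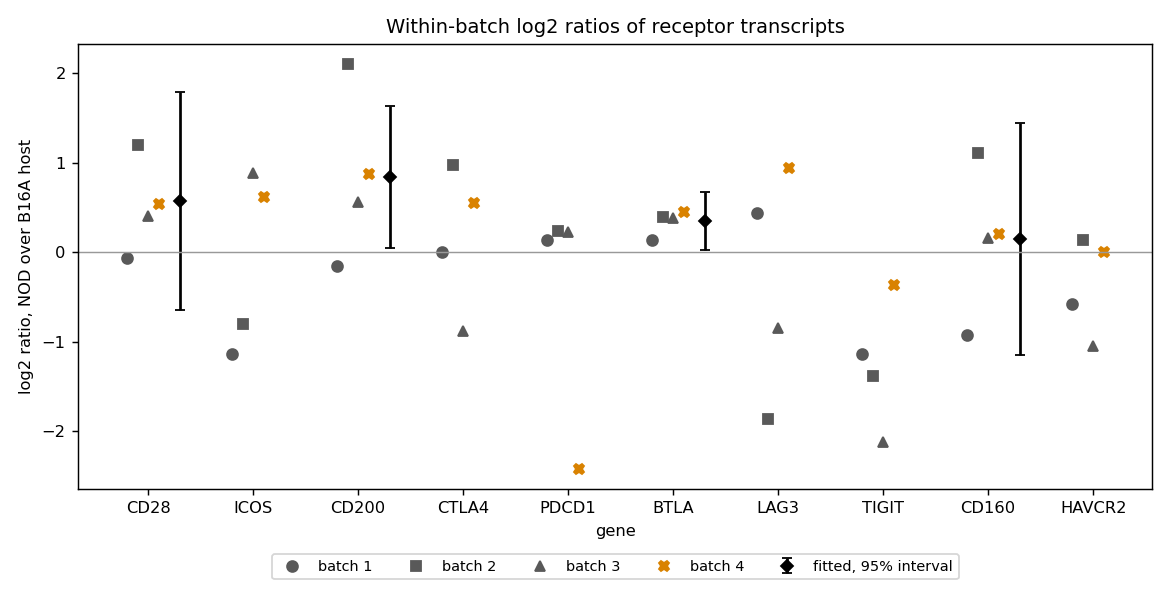
Within-batch log2 ratios of the NOD to the B16A library (vertical axis) for the 10 genes (horizontal axis). Circles, squares and triangles stand for batches 1 to 3 and orange crosses for batch 4, each the ratio of 1 pair of libraries. Black diamonds with bars are the fitted log2 fold change and its unadjusted 95% interval for the 4 tested genes. BTLA lies above 0 and TIGIT below 0 in all 4 batches, and PDCD1 falls to -2.42 in batch 4.

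CD160, a receptor that shares the ligand TNFRSF14 with BTLA, went both ways between hosts. It stood at 1.03, 2.24, 1.47 and 5.33 CPM in NOD and at 2.13, 0.94, 1.29 and 4.61 CPM in B16A hosts, with log2 ratios of -0.92, 1.11, 0.16 and 0.20. The NOD library was lower in batch 1 and higher in the others. The fitted log2 fold change was 0.15 ± 0.61 (SE), with an unadjusted 95% interval of -1.14 to 1.45 (edgeR, adjusted p = 0.998). CD160 (chromosome 3, 96798763 to 96829351, minus strand) shares 68 exon bases with PDZK1 on the opposite strand, where reads cannot be told apart if strand was not used.

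LAG3 and HAVCR2, late inhibitory receptors of stimulated T cells, had few or no counts in batch 4 despite its depth, and were the members with a lower mean CPM there than in batches 1 to 3. LAG3, a receptor for MHC class II on chromosome 6, had 4, 2, 5 and 4 counts in NOD and 3, 12, 10 and 0 counts in B16A hosts. HAVCR2, on chromosome 11 and bound by LGALS9 (galectin-9), had 2, 13, 8 and 0 counts in NOD and 4, 14, 18 and 0 counts in B16A hosts. By the limit of 3 counts, a count of 0 in batch 4 allows up to 0.134 CPM (NOD) or 0.126 CPM (B16A). Both limits lie below the 0.344 to 2.91 CPM of HAVCR2 in batches 1 to 3. Neither gene kept 1 direction between hosts over the batches. Of the listed myeloid markers ITGAX and CD14 also had 0 counts in both batch 4 libraries and were counted in the other 6. Of all 46625 gene names 5097 had this pattern, HAVCR2 included. The part of myeloid cells in the HAVCR2 counts was not tested.

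Levels also went with the batch, given here as a description with no test. Mean CPM in batch 4 was 2.07 times that of batches 1 to 3 for BTLA, 3.68 times for CD200, 7.18 times for CD28, 10.6 times for ICOS and 46.9 times for CTLA4. It was 2.71 times that level for PDCD1, which rests on the B16A library at 5.87 CPM, since the NOD library of batch 4, at 0.94 CPM, lay within the 0.86 to 2.24 CPM of the other NOD libraries. It was 2.92 times that level for TIGIT and 3.27 times for CD160, and 0.0923 times for LAG3. For ICOS and CTLA4 the mean levels in batches 1 to 3, 0.267 and 0.0581 CPM, lie below what 3 counts give in any library there. The ratios of ICOS and CTLA4 are therefore poorly determined. HAVCR2, like LAG3, was lower in batch 4, with 0 counts in both libraries. CD69, an early activation marker, was higher in batch 4, at 4781 and 3734 CPM there and 88.2 to 357 CPM elsewhere. Other listed genes went both ways in batch 4. NR4A1 (4.31 times) and NR4A2 (8.59 times) were higher, EGR3 (0.0145 times) and IL2RA (0.132 times) lower. CD3G, a marker of CD4 T cells here, was 8.35 times as high. The part of CD69 was not tested, and batch 4 also differs in depth and in detected genes.

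Per kb of exon, the scale on which genes can be compared, BTLA stood first in all 8 libraries. Its level was 19.9 ± 9.06 CPM per kb in NOD and 15.4 ± 5.98 CPM per kb in B16A hosts (SD, n = 4 each), and its lowest library, 11.9, was above the highest of any other member, 7.87 for CD200. BTLA made up 58.9% to 80.5% of the summed per-length level of the 10 genes. CD200 followed at a mean of 2.76 CPM per kb over 8 libraries, then TIGIT at 1.91, PDCD1 at 0.928, CD160 at 0.901, CD28 at 0.485, HAVCR2 at 0.450, LAG3 at 0.356, CTLA4 at 0.311 and ICOS at 0.263. Below BTLA the ranges of all neighbours in this order overlapped. In batch 4 CTLA4 and ICOS ranked above LAG3 and HAVCR2, and in batches 1 to 3 they ranked below them.

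**Figure D3:**
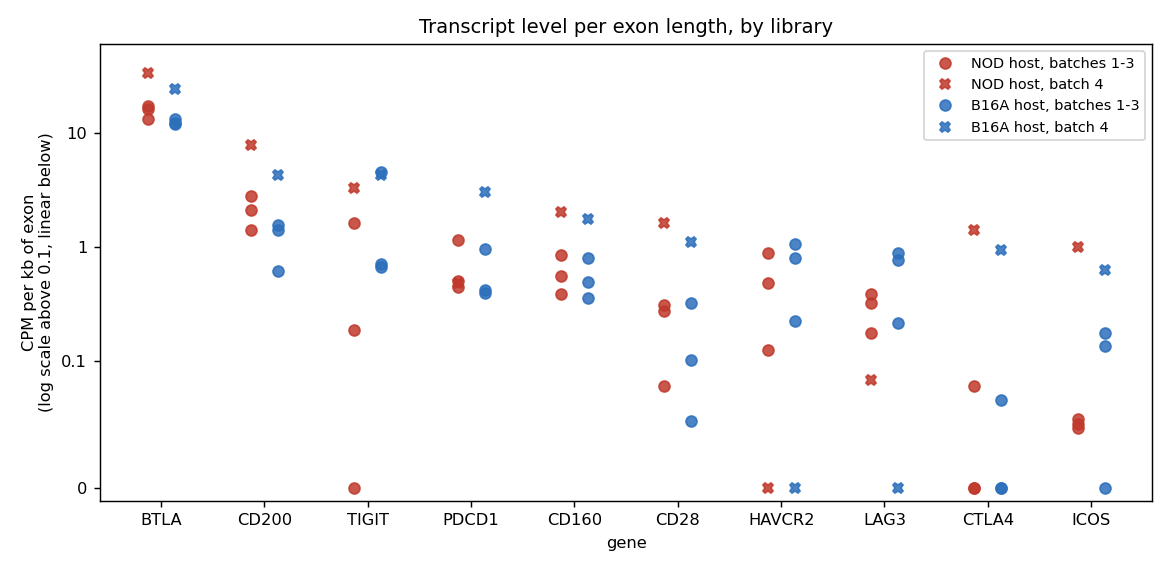
CPM per kb of exon (vertical axis, log scale above 0.1 and linear below it) for the 10 genes in falling order of their mean. Each marker is 1 library, red NOD and blue B16A host, circles batches 1 to 3 and crosses batch 4. BTLA stands above all others in every library, and LAG3 and HAVCR2 are the genes whose batch 4 crosses lie at the bottom.

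The pathway around these receptors showed no called gene either. The lists were 12 ligands, 14 further co-signalling receptors, 13 CD28 signalling molecules, 12 molecules of inhibitory signalling and trafficking, and 18 transcription factors known to act on these genes. Of these, 8, 13, 13, 12 and 17 genes were tested and 0 were called in either direction (edgeR, adjusted p from 0.683 up). The list medians of log2 fold change were -0.05, 0.01, -0.06, -0.03 and -0.04, next to 0.01 over all tested genes. The 4 tested receptors had a median of 0.46 and all 4 values were positive, but they were only the members with enough counts to test. The 6 others are not in that median.

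Among the ligands ICOSL, the partner of ICOS, had a log2 fold change of 1.52 (standard error 0.73) with 2.93 ± 1.03 CPM (SD, n = 4) in NOD hosts against 1.39 ± 0.997 CPM (SD, n = 4) in B16A hosts (edgeR, adjusted p = 0.857). PVR, the partner of TIGIT, stood at 52.9 ± 11.3 and 63.8 ± 10.5 CPM and was lower in the NOD library of each batch (log2 fold change -0.28, standard error 0.16; edgeR, adjusted p = 0.895). TNFRSF14, the partner of BTLA and CD160, had a log2 fold change of -0.09 ± 0.16 (SE). Of the further receptors CD96, a relative of TIGIT, had 0.16 (standard error 0.14) and CD101 had 0.98 (standard error 0.66).

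In CD28 signalling LCK, the kinase that starts receptor signalling, had a log2 fold change of 0.51 ± 0.15 (SE; edgeR, unadjusted p = 0.00432, adjusted p = 0.683). It was higher in the NOD library of each batch. MALT1, a protease on the path to NF-kB, had -0.33 ± 0.15 (SE). DOK2 and DOK1, adaptors that damp signalling and act below CD200R1, had 0.70 (standard error 0.22) and 1.13 (standard error 0.52). Of the transcription factors NR4A3, induced by receptor signalling, had -0.76 ± 0.21 (SE; edgeR, unadjusted p = 0.00227, adjusted p = 0.683). NFATC2, which acts on PDCD1 and other inhibitory receptor genes, had -0.42 ± 0.14 (SE; edgeR, unadjusted p = 0.00803, adjusted p = 0.734). NR4A3 and NFATC2 were both lower in the NOD library of each batch. The relatives of NR4A3 did not share a direction, with NR4A2 at 0.96 ± 0.40 (SE) and NR4A1 at -0.19 ± 0.25 (SE).

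**Figure D4:**
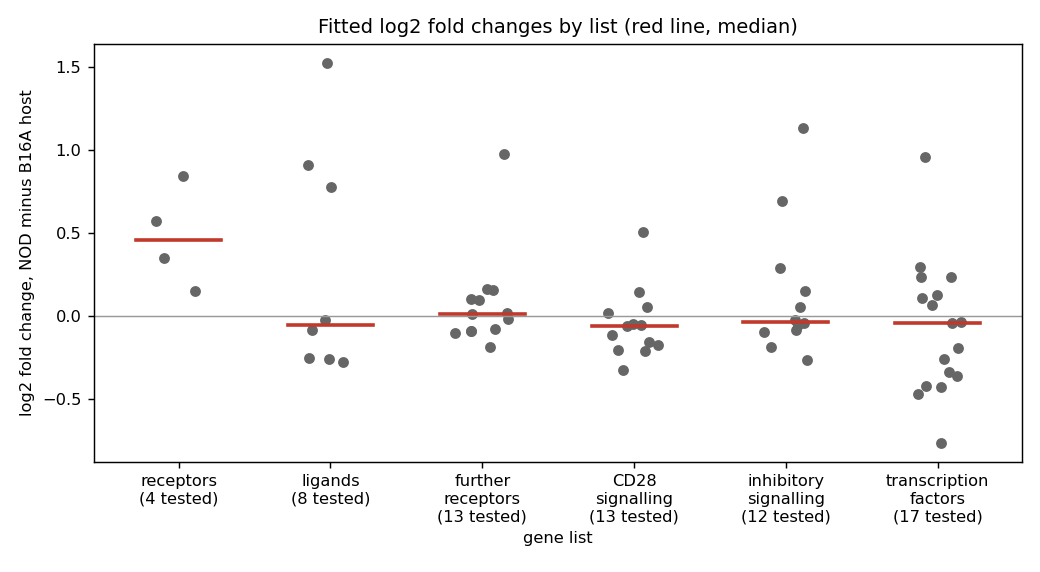
Fitted log2 fold changes, NOD minus B16A host (vertical axis), of the tested genes of each list (a grey dot per gene, spread sideways for sight; the red bar is the median of the tested genes, and no errors are drawn). The 4 receptors lie between 0.15 and 0.85, and the medians of the other 5 lists lie between -0.06 and 0.01.

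No marker of the T cell states that carry these receptors was called between hosts (edgeR). Summed markers of regulatory T cells (8 genes) stood at 87.8 to 113 CPM in NOD and 71.0 to 107 CPM in B16A hosts, with TNFRSF18 of the highest mean CPM. That sum was higher in the NOD library of each batch, and 4 of the 7 tested genes had a positive log2 fold change. Summed markers of follicular helper cells (6 genes) stood at 53.3 to 237 and 58.9 to 167 CPM. SH2D1A had their highest mean CPM through batch 4, at 178 CPM there and 8.28 CPM in batches 1 to 3, where BCL6 stood higher at 41.4 CPM. For anergic cells (2 genes) the sums were 15.8 to 43.6 and 11.4 to 18.6 CPM, mostly IZUMO1R (folate receptor 4). IZUMO1R was higher in the NOD library of each batch (log2 fold change 0.71, standard error 0.28; edgeR, unadjusted p = 0.0247, adjusted p = 0.811). Natural killer markers (4 genes, GZMA of the highest mean CPM) summed to 2.58 to 21.6 and 4.99 to 22.7 CPM. By mean CPM EBF1 led for B cells, CSF1R for myeloid cells, CD8B1 for CD8 T cells and TRBC1 for CD4 T cells.

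By pattern over the 8 libraries, EXOSC9 was most like BTLA (Pearson r = 0.99 of log2 CPM among 8092 genes of at least 10 CPM) and COMMD9 most like CD200 (r = 0.99 among 8093). With each batch's mean removed, PPIL4 was most like BTLA and ZFP952 most like CD200 (r = 1.00 each after rounding). These are descriptions: all libraries share the batch 4 contrast, 4 pairs carry the batch-centred values, and a best match among so many genes is high by selection. Over the same 8 libraries BTLA and CD200 had r = 0.92, and 0.83 with batch means removed.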

How the data were processed

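SeqPlex amplification preceded sequencing, and libraries were read as single 50-base reads, per the labels' protocols. The values used are raw read counts per gene, whole numbers without normalization, which the authors deposited as 1 table for all 8 libraries. The submitters' processing notes name STAR, HTSeq, DESeq2 and the build mm10. Versions, annotation and whether strand was used: not given in the sources used here.

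Genes were tested with edgeR 4.0.16 under R 4.3.3 (robust quasi-likelihood test) after filterByExpr, which kept 14607 genes and removed 32018, and TMM normalization. The host was the tested term and the batch a covariate, leaving 3 residual degrees of freedom. P-values were adjusted by Benjamini-Hochberg over the 14607 genes, and 0.05 was the threshold. Alternatives were DESeq2 1.42.0, limma 3.58.1, other scalings and filters, no batch term, and leaving out libraries. CPM uses TMM-adjusted library sizes, log2 CPM a prior count of 2, and lengths the merged exons of GENCODE vM21. Counting intervals and the limit of 3 counts cover counting error only. The labels mention no molecular identifiers.

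The labels call the replicate number a batch, which pairs the samples. Deviations from the group means correlated at r = 0.625, 0.702, 0.611 and 0.906 within batches 1 to 4. Mismatched pairs among batches 1 to 3 gave 0.465 to 0.741, so the pairing rests on the labels, and these values set apart only batch 4. No label says whether libraries of 1 host come from different animals. The p-values therefore reflect only variation among these libraries, which may be technical. All pairs of libraries differed by more than sampling noise (smallest chi-square per degree of freedom 7.04). On simulated data for this comparison (13655 genes tested), the test called 63.0% of genes changed by 1 on the log2 scale and 96.0% of those changed by 2. It also called 15 genes given no change. The changed genes were drawn from the more abundant ones, so these rates do not cover genes as low as CD28 and CD160.

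The members, lists, tests and alternatives were chosen with earlier results of these data known. All members are named. Each pathway list gives its 2 genes of smallest p, and each marker list its gene of highest mean CPM. For members of at least 4 CPM the gene of highest correlation is named. Other genes were named after their values were seen: CD69, FOXP3 with CTLA4 and TIGIT, CD200R1, ATG3, TNFRSF14, IZUMO1R, BCL6, ITGAX and CD14. So were IKZF4, NRP1, NR4A1, NR4A2, EGR3, IL2RA and CD3G.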

Additional observations from a re-analysis of the deposited data

Results flagged for a closer look

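Within each host group of 4 libraries, the highest or lowest value of a member was compared with the rest, and 6 of 20 groups held a library far from the other 3. The rule would flag about 1 in 20 among independent, normally distributed values, which low counts are not. The same share over all tested genes was not computed, so this count does not set the receptors apart. In 5 of the 6 it was the batch 4 library. In NOD hosts CD28 stood at 9.95 CPM in batch 4 against 0.49 to 1.89 CPM in the others, ICOS at 3.45 against 0.163 to 0.187 CPM and CTLA4 at 3.27 against 0 to 0.187 CPM. In B16A hosts CTLA4 stood at 2.18 CPM in batch 4 against 0 to 0.162 CPM, and BTLA at 82.5 against 40.5 to 44.7 CPM. The remaining one was PDCD1 in NOD hosts, at 2.24 CPM in batch 2 against 0.860 to 0.981 CPM. That library had 12 counts, and the B16A library of the same batch also had 12.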

How the results depend on the processing

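No receptor gene was called under any of the 20 alternatives run. They share libraries, and with batch as a term, leaving out 1 or both libraries of a batch compares the hosts on the same pairs. BTLA, CD200 and CD28 were higher in NOD hosts in all of them (DESeq2 gave no adjusted p for CD200, CD28 and CD160), BTLA from 0.31 to 0.41, CD200 from 0.48 to 1.16 and CD28 from 0.33 to 0.83 on the log2 scale. CD160 turned to -0.051 with limma voom and ran from -0.17 to 0.51 with libraries left out, negative without either or both batch 2 libraries; without both batch 4 libraries it did not pass the filter, with or without the batch term. Over all genes, 11 higher and 3 lower were called without a filter on low counts, 23 and 4 by DESeq2 and 8 and 1 by limma voom. With libraries left out, the counts ran from 0 to 42 higher and from 0 to 13 lower. Calls arose without the NOD (42 and 13) or the B16A library of batch 4 (35 and 10) and without both (25 and 7). With batch as a term, these fits all compare the hosts on the pairs of batches 1 to 3. They differ in filter, scaling and dispersion, do not tell the batch 4 libraries apart, and the cause was not tested. Without both batch 4 libraries and without the replicate block, 0 genes were called, with 704 at an unadjusted p under 0.05 (edgeR). Without the replicate block 0 genes were called, with 34 at an unadjusted p under 0.05 against 857 with it, and BTLA (0.37, standard error 0.39), CD200 (0.85, 0.73), CD28 (0.52, 1.17) and CD160 (0.17, 0.82) kept their direction. The 6 untested members have values without the filter: 0.40 for CTLA4, -0.14 for ICOS, -0.19 for LAG3, -0.56 for HAVCR2, -0.61 for PDCD1 and -1.42 for TIGIT (edgeR, adjusted p = 0.999 each). A prior count of 0.5 left each member's number of batches higher in NOD hosts as it was. Depth limits the low genes: 6 members had 3 or fewer counts in at least 1 library of batches 1 to 3.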

Other observations

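HAVCR2 was the 1 of the 10 members with 0 counts in both batch 4 libraries and at least 1 count in each of the other 6. Of all 46625 gene names 5097 had this pattern, so it does not set the receptors apart. Among the 109 listed genes outside the receptors 5 had this pattern, which was singled out after the values were seen. They were TOX2, a transcription factor of follicular helper cells (6.54 to 16.3 CPM in the other libraries), ITGAX, the dendritic cell integrin CD11c (4.87 to 13.8 CPM), the cytokine gene IL21, the monocyte receptor gene CD14 and CD80, a ligand of CD28 and CTLA4.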
